A study of Mus musculus with 6 samples.

Results

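The mismatch repair genes measured here were 8 rows of the deposited tables, taken by gene name: the MutS homologs Msh3, Msh4, Msh5 and Msh6, the MutL homologs Mlh3, Pms1 and Pms2, and the exonuclease gene Exo1. They were 8 of 55565 genes listed and 8 of 26898 genes with reads in at least 1 library. Their RNA was compared between mouse embryonic fibroblasts (MEFs) with Mcm8 (WT, 3 libraries) and MEFs without it (Mcm8-/-, KO, 3 libraries). The KO allele lacks an internal Mcm8 exon, removed with CRISPR-Cas9, which shifts the reading frame. Both genotypes were derived from trunk tissue at E13.5 after Mcm8+/- parents were mated (C57BL/6J × ICR mixed background). Every culture also carried a lentiviral SV40 sequence (SV40gp6) used for immortalization and was kept after puromycin selection. The methods call the 3 libraries of a genotype biological repeats but do not say whether they were separate embryos or cultures. The spread behind the p-values is thus only that between these libraries and may be technical. The main test took it from a trend over all genes, not from each gene alone.

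Mismatch repair removes bases that were paired wrongly during DNA replication. A MutS heterodimer binds the mismatch, a MutL heterodimer joins it, the new strand is nicked and degraded from the nick by EXO1, and DNA polymerase delta fills the gap with the PCNA clamp on the DNA. MSH6 belongs to the MutS complex that binds single mispaired bases and short loops, MSH3 to the one that binds larger loops. PMS2 and MLH3 carry an endonuclease activity that makes nicks, whereas PMS1 has no such activity. MSH4 and MSH5 pair with each other and act in meiosis, where they hold recombination intermediates that MLH3 later helps to turn into crossovers. MCM8 forms a helicase with MCM9, and MCM9 has been linked to mismatch repair, so the comparison asks whether MEFs without Mcm8 carried a different set of mismatch repair transcripts.

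None of the 8 genes passed the test for a difference between WT and KO MEFs. By FPKM (reads scaled to gene length and library size), Msh6 led at 30.9 ± 0.680 in WT and 30.8 ± 1.06 in KO (mean ± SD, n = 3 each). Exo1, Pms2, Msh3, Mlh3 and Pms1 followed between 1.40 and 5.96 FPKM. Msh5 was low (0.311 ± 0.162 in WT and 0.282 ± 0.0395 in KO) and Msh4 was near zero (0.0310 ± 0.0225 and 0.0075 ± 0.0069), near zero being taken as a mean below 0.1 FPKM in both genotypes. With edgeR's quasi-likelihood test and Benjamini-Hochberg adjustment over all genes, 0 of 8 were called at an adjusted p below 0.05 in either direction, against 4.97% of all genes tested called higher and 4.03% called lower in KO. With an absolute log2 fold change above 1 asked as well, 1.75% of all genes were called higher and 0.665% lower, and again 0 of the 8. One of the 8, Pms1 (lower), had an unadjusted p below 0.05, as had 9.47% of all genes in the higher and 8.47% in the lower direction. DESeq2 and limma-trend also called 0. All genes tested include many with few reads, here and beside the lists below. After a stricter filter on counts (filterByExpr), 2046 of 14332 genes were called, against 2420 of 26898 in the main fit.

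WT1 differed most from the libraries of its own genotype (chi-square per degree of freedom of 13.1 and 12.1, against 2.56 to 4.17 for the other pairs), and calls of the 8 genes and of the pathway and meiotic lists that change without it are given beside them. The libraries held 12722979 to 19019695 counts in WT and 15954793 to 21022755 in KO. Mcm8 kept 29.6% of its WT level in KO (176, 233 and 238 counts in WT against 89, 74 and 66 in KO), and counts summed over the gene do not show which exons were read. Of 10 fibroblast markers, 9 were at 1 FPKM or more, and 2 of the 10 (Col1a1 and Col3a1) were called higher and 3 lower (all genes: 4.97% and 4.03%). Thy1 fell from 394 ± 9.30 to 194 ± 5.99 CPM (counts scaled to each library's TMM-adjusted size), with a log2 fold change of -1.03 ± 0.07 (SE) and adjusted p = 3.44e-47 (edgeR). Pdgfrb fell by 0.74 on the log2 scale, and Vim by 0.19. The summed level of 4 mesothelial markers lay between 2.95 and 3.35 CPM in WT and between 43.2 and 48.7 CPM in KO libraries, nearly all of it Msln. Of 9 germ cell markers, Dppa3, Pou5f1, Mael and Sox17 were at 0 in every library, and their sum reached at most 3.35 CPM. Epithelial, endothelial and blood markers, each list summed on its own, reached at most 4.33 CPM in any library, and of the 4 neural markers Tubb3 was called higher (log2 fold change 0.67). In bulk RNA, fewer cells of a type and less RNA per cell cannot be told apart, and the part of these differences in the values below was not tested.

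**Figure D1:**
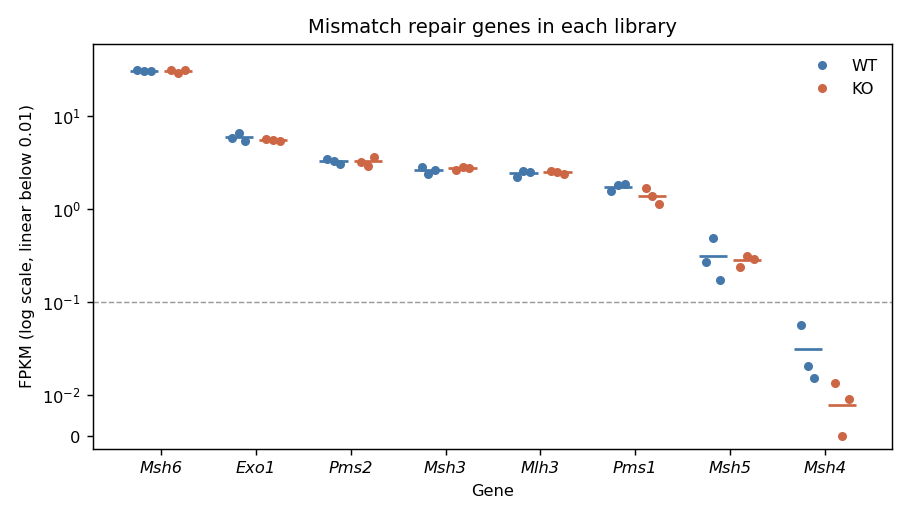
FPKM of the 8 mismatch repair genes in each library, on a log axis that is linear below 0.01. Points are the 3 WT (blue) and 3 KO (orange) libraries, short bars are their means, and the dashed line is 0.1 FPKM. Msh6 lies near 31 in all 6 libraries, and Msh4 alone lies below the line.

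The stretches before the start sites of Msh6 and Pms1 are shown first, because Msh6 was the most abundant of the 8 and Pms1 was the one with the largest difference among those above 1 FPKM. They are RefSeq sequences of the GRCm38.p6 build, whereas the positions of genes given below are those of the deposited tables, which follow another build. They run 5′ to 3′ on the strand of the gene. Capitals mark the 2 motifs searched on both strands, the CCAAT box (CCAAT) and the GC box (GGGCGG). The Msh6 stretch is the 160 bases before its start (chr17:87974890-87975049, plus strand), and the Pms1 stretch is the 60 bases before its start (chr1:53297029-53297088, minus strand).
Msh6: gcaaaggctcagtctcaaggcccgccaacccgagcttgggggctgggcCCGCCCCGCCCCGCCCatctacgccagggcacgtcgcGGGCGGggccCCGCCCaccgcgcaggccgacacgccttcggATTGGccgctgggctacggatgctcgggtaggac
Pms1: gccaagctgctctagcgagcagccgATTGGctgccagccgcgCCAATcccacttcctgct

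The Msh6 stretch holds 5 GC boxes, 3 of them overlapping in 1 run, and 1 CCAAT box on the opposite strand 34 bases before the start. The Pms1 stretch holds 2 CCAAT boxes, 1 on each strand, 35 and 18 bases before the start, and no GC box. In all, RefSeq gave a window for 7 of the 8 genes. In the 250 bases before the start, 5 of the 7 held a CCAAT box and 4 a GC box, and Msh4 held neither. Among 32851 such windows of all genes, 33.8% held the CCAAT box and 32.7% the GC box. The window of Msh6 was 70.8% G or C, that of Msh4 43.6%, and the median of all windows 52.4%. The RefSeq start of Msh4 lies 1247 bases inside the gene as GENCODE M21 draws it on the same build, so its window is not the sequence before the outermost start. These matches describe letters in a window and are not binding sites.

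Msh6 (chr17:88282490-88298320, plus strand, protein-coding) had the most RNA of the 4 MutS homologs measured here. It had 31.6, 30.4 and 30.6 FPKM in WT and 31.4, 29.5 and 31.3 in KO libraries, given here and below in the order of the replicate numbers (WT1 to WT3, KO1 to KO3). The 2 genotypes overlapped, and the lowest and highest of all 6 libraries were both close to the mean. Its level passed that of 93.8% of the genes with reads. The log2 fold change of KO against WT was -0.0030 ± 0.07 (SE, adjusted p = 0.985, edgeR), with a 95% interval from -0.15 to 0.14, which spans -9.64% to 10.2% of the WT level. It rested on 1755 to 2912 counts per library, the most of the 8.

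Msh3 (chr13:92348380-92491511, minus strand, protein-coding) had 2.88, 2.39 and 2.67 FPKM in WT and 2.65, 2.85 and 2.77 in KO libraries. All 3 KO values fell inside the WT range. The log2 fold change was 0.06 ± 0.10 (SE, adjusted p = 0.778, edgeR), with a 95% interval from -0.13 to 0.25. The highest WT library and the lowest WT library thus differed by more than the mean of KO differed from the mean of WT.

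MSH3 and MSH6 take the same place in their heterodimers, and the ratio of their transcripts was computed in each library. Msh6 had 11.0, 12.7 and 11.5 times the FPKM of Msh3 in WT and 11.9, 10.4 and 11.3 times in KO libraries. The means were 11.7 ± 0.883 and 11.2 ± 0.752, and the ranges overlapped. On the log2 scale the ratio differed by -0.07 between genotypes (exact two-sided permutation p = 0.5, smallest possible 0.1). The size of the ratio rests on the length used for Msh3: the tables divide its reads by 11254 bases of exons, whereas its longest coding transcript in GENCODE M21 has 3946. With the longest coding transcript as length for both genes (for Msh6 4251 in place of 4346), the ratio was 4.20 ± 0.316 in WT and 4.01 ± 0.270 in KO.

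Among the MutL homologs, Pms2 (chr5:143846782-143870786, plus strand, protein-coding) had 3.46, 3.31 and 3.10 FPKM in WT and 3.22, 2.93 and 3.67 in KO libraries. The KO libraries were both below and above the WT range. Its log2 fold change was -0.0042 ± 0.10 (SE, adjusted p = 0.984, edgeR), with a 95% interval from -0.20 to 0.19.

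Mlh3 (chr12:85281294-85317373, minus strand, protein-coding) had 2.23, 2.55 and 2.52 FPKM in WT and 2.59, 2.55 and 2.41 in KO libraries. The lowest library was WT1 and the highest KO1, and the other 4 lay close together. Its log2 fold change was 0.05 ± 0.11 (SE, adjusted p = 0.863, edgeR), with a 95% interval from -0.18 to 0.27. Mlh3, known for its meiotic role, was thus read in MEFs above its meiotic partners Msh4 and Msh5 in every library.

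Pms1 (chr1:53228346-53336177, minus strand, protein-coding) had the largest difference of the 6 genes above 1 FPKM. It had 1.57, 1.83 and 1.86 FPKM in WT and 1.68, 1.39 and 1.13 in KO libraries. KO2 and KO3 lay below every WT library and KO1 lay within the WT range. Its log2 fold change was -0.32 ± 0.13 (SE), with a 95% interval from -0.58 to -0.06. The SE and interval use a spread taken from the trend over all genes, so they may be too narrow for Pms1. Its coefficient of variation in KO was 19.8%, against 7.18% expected from counting alone. The unadjusted p was 0.0177 and the adjusted p 0.140 (edgeR), so Pms1 was not called, and the exact permutation test on FPKM gave 0.2. Without WT1 the log2 fold change was -0.39 and the adjusted p 0.0399 (edgeR), and Pms1 was then the 1 member called. Without KO1 it was -0.48 with an adjusted p of 0.0513, and without KO3, the lowest library, -0.18 with an adjusted p of 0.726 (edgeR).

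PMS2, PMS1 and MLH3 likewise take the same place in MutL heterodimers. The ratio of Pms2 to Pms1 was 2.20, 1.81 and 1.67 in WT and 1.92, 2.11 and 3.25 in KO libraries, where only KO3 passed the WT range. The log2 ratio differed by 0.33 between genotypes (exact two-sided permutation p = 0.3), and by 0.10 without KO3. With transcript lengths in place of the deposited ones, the ratio was 1.14 ± 0.166 in WT and 1.45 ± 0.431 in KO. The ratio of Pms2 to Mlh3 was 1.36 ± 0.168 in WT and 1.31 ± 0.193 in KO (log2 difference -0.06, exact permutation p = 0.6).

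Exo1 (chr1:175708147-175741055, plus strand, protein-coding), whose product degrades the nicked strand, ranked second of the 8. It had 5.91, 6.60 and 5.37 FPKM in WT and 5.75, 5.51 and 5.44 in KO libraries. The WT libraries were spread more widely (SD 0.618) than the KO libraries (SD 0.161), which all fell within the WT range. Its log2 fold change was -0.09 ± 0.09 (SE, adjusted p = 0.621, edgeR), with a 95% interval from -0.26 to 0.08.

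**Figure D2:**
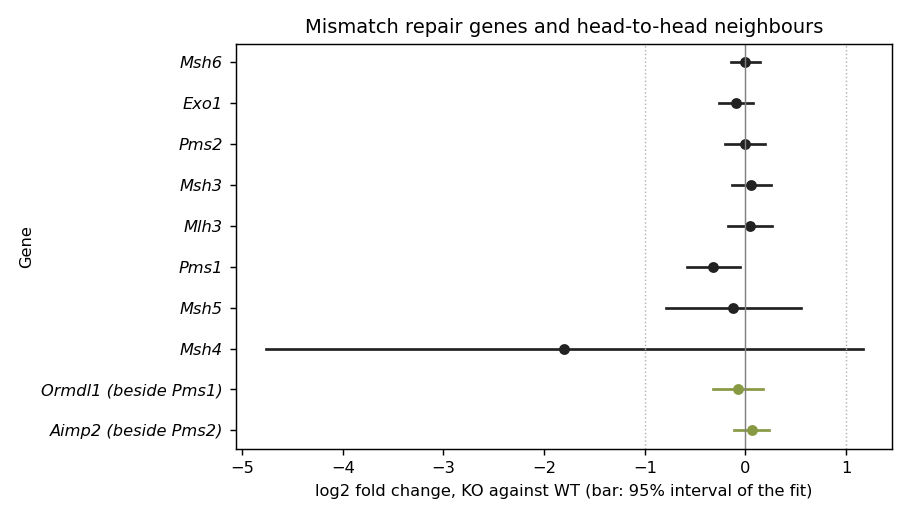
Log2 fold change of KO against WT for the 8 mismatch repair genes (black) and for Ormdl1 and Aimp2, which start head to head with Pms1 and Pms2 (green). Points are edgeR estimates, bars their 95% intervals, and dotted lines mark a log2 fold change of 1 in either direction. The interval of Pms1 alone leaves out 0 (adjusted p = 0.140), though it uses a spread taken from the trend over all genes. The interval of Msh4 runs from -4.77 to 1.16.

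Msh5 (chr17:35247581-35265721, minus strand, protein-coding) was detected in every library, with 19, 38 and 18 counts in WT and 28, 29 and 26 in KO. These made 0.269, 0.489 and 0.173 FPKM in WT and 0.238, 0.314 and 0.292 in KO libraries. WT2 was the highest and WT3 the lowest of the 6, with all KO libraries between them. The log2 fold change was -0.12 ± 0.34 (SE, adjusted p = 0.884, edgeR), with a 95% interval from -0.79 to 0.55. Without WT2 it turned to 0.37. Summed over libraries, 75 reads of 45851520 in WT and 83 of 53413525 in KO gave a rate ratio of 0.950 (exact 95% interval 0.687 to 1.32, covering counting error only).

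Msh4 (chr3:153562786-153611775, minus strand, protein-coding) had 5, 2 and 2 counts in WT and 2, 0 and 1 in KO libraries. They corresponded to 0.0568, 0.0206 and 0.0154 FPKM in WT and 0.0136, 0 and 0.0090 in KO. Only WT1 was above the floor of 3 counts per library, so the level of the gene was at or near the limit of detection in both genotypes. The 9 reads in WT and 3 in KO gave a rate ratio of 0.286 with an exact 95% interval from 0.0498 to 1.15. In CPM, Msh4 was lower in every KO than in every WT library, the only member whose genotypes did not overlap. Of all genes, 10.1% were lower and 11.6% higher without overlap. Its adjusted p was 0.565 (edgeR), and a difference was not detectable at this depth. MSH4 and MSH5 work as a pair, and in these MEFs Msh5 was above Msh4 in every library of both genotypes.

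Ordered by FPKM, the 8 genes ran Msh6, Exo1, Pms2, Msh3, Mlh3, Pms1, Msh5 and Msh4 in both genotypes. Neighbours did not overlap over the 3 libraries except Msh3 and Mlh3, which overlapped in WT. The largest steps were from Msh6 to Exo1 (5.18 times in WT, 5.53 times in KO), from Pms1 to Msh5 (5.64 and 4.97 times) and from Msh5 to Msh4. The middle of the order moved with the length by which reads were divided. With the longest coding transcript of GENCODE M21 as length, Msh3 rose to second place (7.55 ± 0.703 in WT and 7.86 ± 0.283 in KO), above Exo1 (6.44 ± 0.668 and 6.01 ± 0.174), and Pms1 (4.33 ± 0.396 and 3.46 ± 0.680) and Mlh3 (3.37 ± 0.245 and 3.48 ± 0.129) changed places in WT. Msh6 stayed first, Msh5 seventh and Msh4 last. The levels between genotypes use 1 length per gene and do not depend on it.

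**Figure D3:**
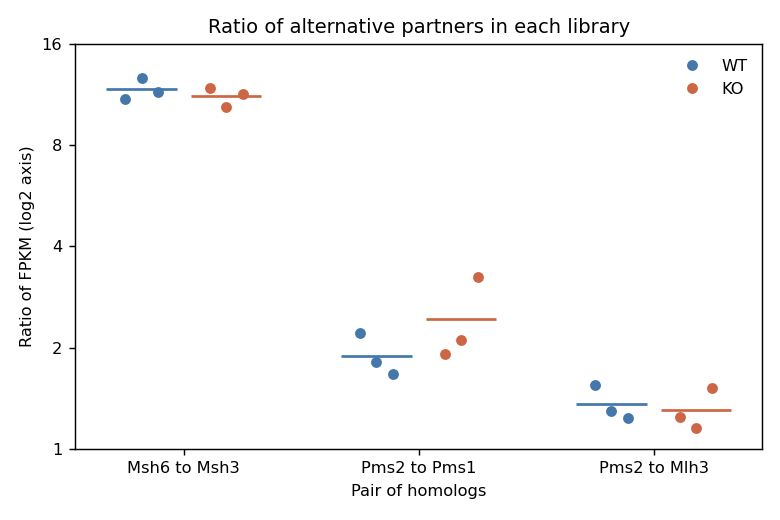
Ratio of the FPKM of homologs that take each other's place in a heterodimer, in each library, on a log2 axis. Points are the 3 WT (blue) and 3 KO (orange) libraries and short bars their means. The genotypes overlap in all 3 ratios, and KO3 stands highest for Pms2 to Pms1 at 3.25.

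Head-to-head genes start close to each other on opposite strands, so that 1 stretch of DNA lies before both starts. Such expressed neighbours, within 1000 bases in the deposited annotation, are described for Pms1 and Pms2. Ormdl1, a regulator of sphingolipid synthesis, starts 77 bases from Pms1. Its 13.9 ± 0.687 CPM in WT and 13.2 ± 0.727 in KO gave a log2 fold change of -0.07 (adjusted p = 0.796, edgeR), with a 95% interval from -0.32 to 0.18. Aimp2, a scaffold of the aminoacyl-tRNA synthetase complex, starts 117 bases from Pms2 and had 42.6 ± 3.69 and 44.4 ± 1.13 CPM (log2 fold change 0.06, adjusted p = 0.721, edgeR). Neither neighbour was called, and the 2 genotypes overlapped in both.

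The kit did not mark the strand, so reads of a member and of a gene that overlaps it cannot be told apart where they share bases. In the deposited annotation 7 of the 8 genes, all but Msh5, were overlapped by at least 1 other gene. Fbxo11, which is well expressed, shares 34 bases with Msh6. Another 9 had at most 18 counts in any library, the most for Rsph10b over Pms2.

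The 3 protein-coding genes whose library pattern was most like that of Pms1 were Prickle2, Kbtbd4 and Stradb. Likeness was the root mean square difference of log2 CPM, each gene centred on its mean over the 6 libraries, among 9104 genes with a mean of at least 10 CPM. It was 0.0410 for Prickle2, 0.0853 for Kbtbd4 and 0.0874 for Stradb, against a median of 0.265. Prickle2, a planar cell polarity gene, had 19.4 ± 1.49 CPM in WT and 15.1 ± 2.42 in KO (log2 fold change -0.36, adjusted p = 0.0248, edgeR). Kbtbd4 and Stradb had adjusted p-values of 0.288 and 0.309 (edgeR). Because likeness was measured on these same 6 libraries, falls like that of Pms1 follow from the choice and are no separate result.

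Beyond the 8 genes, 52 further genes of the pathway and of meiotic recombination were listed and 47 tested, of which 5 were called higher and 4 lower in KO (all genes: 4.97% and 4.03%). Without Mcm8, the deleted gene, and Pcna, whose reads may be split with a near-identical copy, 4 were higher and 3 lower. The median log2 fold change was -0.05 over the 8 genes and 0.01 over all genes tested.

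Of 15 genes of repair synthesis (the PCNA clamp, its RFC loader, the single-strand binding protein RPA, DNA polymerase delta, DNA ligase I and HMGB1), all were at 1 FPKM or more. In KO 2 were called higher and 1 lower (all genes: 4.97% and 4.03%), with a median log2 fold change of 0.05. Pcna had 223, 197 and 185 CPM in WT and 263, 269 and 263 in KO libraries (log2 fold change 0.40 ± 0.07 (SE), adjusted p = 5.58e-07, edgeR). A near-identical copy, Pcna-ps2, had 66.6 CPM in WT and 0.914 in KO, and the sum of both was 268 ± 31.3 CPM in WT and 266 ± 2.85 in KO, so how reads were split between the copies leaves the rise of Pcna uncertain. Pold1, the catalytic subunit of polymerase delta, rose from 102 ± 8.44 to 121 ± 4.16 CPM (log2 fold change 0.24 ± 0.07 (SE), adjusted p = 0.0183, edgeR), with no overlap. This call was lost without KO1, KO2, KO3 or WT2, with adjusted p-values of 0.0836 to 0.174. Hmgb1, a chromatin protein that can aid mismatch repair in a purified system, fell from 108 ± 14.2 to 86.5 ± 4.88 CPM (log2 fold change -0.32 ± 0.08 (SE), adjusted p = 0.000682, edgeR), though WT3 at 91.7 lay below KO2 at 92.0. Its adjusted p was 0.0162 with DESeq2, 0.0343 with filterByExpr (edgeR) and 0.0373 with limma-trend. Without WT1, Rfc3 of the clamp loader and the ligase gene Lig1 were called higher as well, with log2 fold changes of 0.23 (adjusted p = 0.0401, edgeR) and 0.18 (adjusted p = 0.00694), against 0.20 (0.168) and 0.16 (0.194) with all libraries.

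Of 11 genes of nucleases, helicases and associated factors (among them Hrob, whose product aids MCM8 and MCM9, and the histone methyltransferase gene Setd2), all were at 1 FPKM or more. In KO 0 were called higher and 1, Mcm8 itself, was lower (edgeR, all genes: 4.97% and 4.03%). At an unadjusted p below 0.05 the counts were 0 and 2, Mcm8 and the nuclease gene Mre11a (all genes: 9.47% and 8.47%), and DESeq2 and limma-trend called 0 higher and 1 lower. Mcm9, the helicase partner of Mcm8, had 21.7 ± 3.49 CPM in WT and its log2 fold change was -0.08 (adjusted p = 0.731, edgeR). Fan1, a nuclease that binds MutL proteins, had a log2 fold change of 0.12 (adjusted p = 0.684, edgeR). The median of the list was 0.01.

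Because Msh4, Msh5, Mlh3 and Exo1 also serve meiosis, 26 meiotic crossover and synapsis genes were described. In MEFs 19 of them were near zero, 13 were at or under 3 counts in every library and 5 of these were at 0 throughout. Of 21 tested, 3 were called higher and 2 lower in KO, against 4.97% and 4.03% of all genes. The median fitted log2 fold change over the 21 was 1.01, a value that rests on genes with few or no counts. Of the 13 genes above the floor in at least 1 library, with Tex11 and Six6os1 at their bounds, 6 lay above 0 and 6 below, and Spo11 (4 counts in KO1, 0 elsewhere) gave no direction.

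Tex11, an X-linked gene of meiotic synapsis and crossover formation, was at 0 in all WT libraries and had 34, 22 and 21 counts in KO1, KO2 and KO3. It was at least 6.95-fold higher in KO, against a floor of 3 counts per WT library (adjusted p = 1.76e-11, edgeR). The sex-linked genes also differed between genotypes, Xist (X chromosome) from 1196 ± 224 to 481 ± 11.4 CPM and Ddx3y (Y chromosome) from 7.77 ± 0.966 to 42.6 ± 5.32 CPM, and their part in the Tex11 difference was not tested. Stag3, a meiotic cohesin subunit, had 1.96, 2.14 and 1.88 CPM in WT and 5.05, 3.97 and 2.87 in KO libraries (log2 fold change 1.01 ± 0.26 (SE), adjusted p = 0.00173, edgeR). All KO libraries were higher, and the call was lost without KO1 (adjusted p = 0.131) and with limma-trend (0.0547). Six6os1, a synaptonemal complex gene, was at 0 in WT and had 7, 4 and 5 counts in KO, at least 1.45-fold higher, with an adjusted p of 0.0346 (edgeR) that rose to between 0.0642 and 0.160 when any 1 library was left out. It was 0.139 with the replicate number as a block, and DESeq2 gave no adjusted p.

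Mei4, needed for meiotic DNA breaks, fell from 4.39 ± 0.360 to 2.29 ± 0.0997 CPM (log2 fold change -0.92 ± 0.24 (SE), adjusted p = 0.00279, edgeR). Sycp2, a component of the synaptonemal complex, had 2.51, 3.92 and 2.47 CPM in WT and 1.46, 1.56 and 1.25 in KO libraries (log2 fold change -1.04 ± 0.30 (SE), adjusted p = 0.00838, edgeR). Its call was lost without WT2 (adjusted p = 0.139), without KO3 (0.0535), with DESeq2 (0.0515) and with limma-trend (0.0781). The 5 called genes thus moved in both directions, while Msh5 at a like level of 1.72 CPM in WT and 1.56 in KO was not called.

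**Figure D4:**
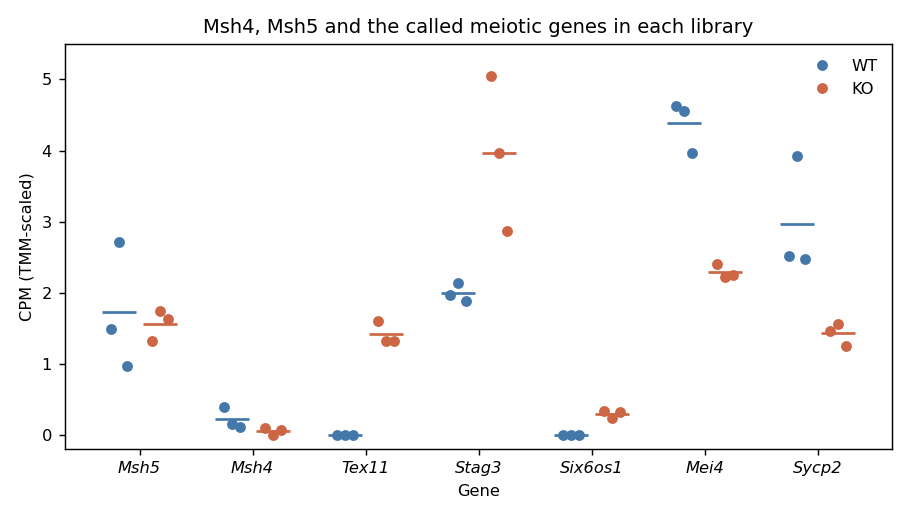
CPM of Msh5, Msh4 and the 5 meiotic genes called between genotypes, in each library, on a linear axis. Points are the 3 WT (blue) and 3 KO (orange) libraries and short bars their means. Tex11, Stag3 and Six6os1 stand higher and Mei4 and Sycp2 lower in all KO libraries, whereas Msh5 overlaps and Msh4 is close to 0 in both.

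Several mismatch repair genes are transcribed more in dividing cells, and cell cycle genes were described beside them. Of 24 S-phase genes 1 was called higher, Pcna (uncertain, as above), and 0 lower (all genes: 4.97% and 4.03%), with a median log2 fold change of -0.0010 (edgeR). At an unadjusted p below 0.05, 3 were higher and 2 lower (all genes: 9.47% and 8.47%), and for lower genes DESeq2 called 1 and limma-trend 0. Of 20 G2/M genes Plk1, a mitotic kinase, rose by a log2 fold change of 0.30 (adjusted p = 0.000872, edgeR) and Kif11, a spindle motor, fell by 0.24 on the log2 scale (adjusted p = 0.0120). The median of the G2/M list was -0.04. The summed S-phase level lay between 3901 and 4025 CPM in WT and between 3985 and 4061 CPM in KO libraries, and the summed level of the 8 mismatch repair genes between 270 and 278 and between 263 and 276 CPM.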

How the data were processed

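The authors aligned 150-base read pairs from unstranded NEBNext Ultra libraries with Hisat2 (2.0.5, per the labels) and counted reads per gene with featureCounts (1.5.0-p3). They deposited raw counts and FPKM values for the same genes. FPKM divides counts by the exon length of the gene and the library's reads. The study's methods name Ensembl 106, the labels GRCm38. Only 1509 of 52096 shared identifiers had the same coordinates in GENCODE M21 (GRCm38), so coordinates are given as deposited, and those of sequences as in RefSeq GRCm38.p6.

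The deposited counts were tested with edgeR 4.0.16 (quasi-likelihood, TMM, TMM factors 0.980 to 1.01) in R 4.3.3 over genes with FPKM above 0 in at least 1 library, without covariates, and adjusted by Benjamini-Hochberg over all of them. The prior degrees of freedom were infinite, so each gene took its spread from the trend, and p-values are too small for genes more variable than it. Ratios were tested by exact permutation in SciPy 1.17.1. Simulated on 25869 genes, the test recovered 39 of 50 genes changed by 0.5 on the log2 scale and 49 of 50 changed by 1, with 5 false calls. The simulation gave every gene the same spread, held no outlying library and changed only genes with a mean of at least 50 counts. It thus met the assumption of the fit. It cannot show how the test does for genes more variable than the trend, or at the counts of Msh4 and Msh5.

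Libraries of a genotype differed by more than sampling noise (chi-square per degree of freedom 2.56 to 13.1), so no library was counted as a duplicate of another. Named genes were all 8 members, head-to-head and overlapping genes where described, called genes of the lists and the 3 genes most like Pms1. The members and the lists were chosen with earlier results of these data known. Six6os1 was matched as 4930447C04Rik through RefSeq synonyms. Alternatives were DESeq2 1.42.0, limma-trend 3.58.1, RLE scaling, other filters, a replicate block, a test against a 2-fold change and each library left out. Transcript lengths, unadjusted p-values and lists without Mcm8 and Pcna came later, with the data in view. Reads, splicing, CUT&Tag and proteomic data were not analysed here. Some items are not reported here.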

Additional observations from a re-analysis of the deposited data

How the results depend on the processing

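Over 87 refitted log2 fold changes of the 8 genes, 76 kept their direction and side of the threshold, 10 turned in direction and 1, Pms1 without WT1, passed the threshold. Members called lower went from 0 to 1 without that library and to 1 by unadjusted p (range 0 to 1 with each library left out). Msh6 turned to 0.0011 under filterByExpr. With each library left out, the log2 fold change ran from -0.0090 to 0.12 for Msh3, -0.44 to 0.37 for Msh5, -0.020 to 0.026 for Msh6, -0.011 to 0.083 for Mlh3, -0.084 to 0.068 for Pms2, -0.48 to -0.18 for Pms1, -0.16 to -0.015 for Exo1 and -2.48 to -1.09 for Msh4, and the difference in the Pms2 to Mlh3 log2 ratio from -0.18 to 0.036. Pathway genes called higher went from 5 to between 2 and 6 with each library left out, and with the test against a 2-fold change 1 was higher (Tex11) and 1 lower (Mcm8). Near zero were 2 members with a limit of 1 FPKM, and 0 with TPM, where Msh4 had 0.115 in WT. With transcript lengths 8 of 16 places in the order differed. The cause of the other turns was not tested. Over all genes, calls numbered 2420, 1756 with DESeq2, 1783 with limma-trend, 200 with the 2-fold test and 1612 to 3264 with each library left out. With filterByExpr 2046 of 14332 genes were called. With the replicate number as a block 2365 were called, 0 members and 4 pathway genes higher, without Six6os1 (adjusted p = 0.139). Same-numbered libraries did not deviate together (correlations of -0.02, -0.02 and 0.04 over 14332 genes), so the block pairs nothing. Depth limits Msh4, whose interval was 0.0498 to 1.15 times the WT rate by counting error alone and -4.77 to 1.16 on the log2 scale in the edgeR fit.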

Other observations

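The spread between libraries was set beside the spread that counting alone would give. For Msh6 the coefficient of variation was 2.04% in WT and 3.60% in KO, against 2.22% and 2.03% expected from the mean count. For Exo1 it was 9.98% in WT against 3.64% expected, and 3.01% in KO against 3.43%. For Pms1 it was 9.50% in WT against 7.02%, and 19.8% in KO against 7.18%. For Msh5 it was 51.9% in WT against 20.0% and 13.9% in KO against 19.0%. The genotype with the wider spread thus differed from gene to gene, and with 3 libraries each the difference between genotypes in spread was not tested.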
